A study of Danio rerio with 18 samples.

Results

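The 82 genes described here encode receptors for synaptic transmitters, proteins of vesicle release and synaptic adhesion, voltage-gated and leak ion channels, and the calcium-dependent enzymes CaMKII and calcineurin. They are all genes of the array whose symbol begins with gria, grin and a digit, grik, gabr, glra, chrn, syt and a digit, snap25, stx1, vamp, nrxn, nlgn, kcn, scn and a digit, cacn, camk2 or ppp3, out of 9259 named genes. The letters matched 96 of the 11724 named spots, or 95 probes, and the probe with the highest mean intensity stands for each gene. By role they fall into 8 AMPA glutamate receptor subunits, 3 GABA-A, 4 glycine and 9 nicotinic acetylcholine receptor subunits, 1 synaptic adhesion gene, 21 vesicle fusion genes, 13 potassium, 4 sodium and 9 calcium channel genes, 7 CaMKII genes and 3 calcineurin genes. No probe carried a name of the grin, grik or nlgn families. The letters also caught genes that act outside the synapse, such as stx17 and stx18, which act in autophagy and at the endoplasmic reticulum, and the muscle channel gene cacna1sb. They caught camk2n2 and camk2n2a too, which are named for inhibitors of CaMKII rather than for the kinase.

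At an excitatory synapse, calcium entering the presynaptic ending makes SNARE proteins (syntaxin, SNAP25 and VAMP) fuse vesicles with the membrane under the control of synaptotagmin. Glutamate then opens AMPA receptors, glycine and GABA open chloride channels that inhibit, and acetylcholine opens nicotinic receptors at the neuromuscular junction and in the brain. Calcium in the receiving cell acts through calmodulin on CaMKII, a kinase that strengthens synapses, and on calcineurin, a phosphatase that weakens them.

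Starting at 3 hpf, wild-type zebrafish spent 7 days in water with bisphenol A (BPA), a monomer of polycarbonate plastics, at 500, 1500 or 4500 µg/L. The 0.05% ethanol that carried the BPA was in every tank, and the control group had it alone. Each array compared Cy5-labelled RNA of 50 pooled whole larvae with a Cy3-labelled common reference, RNA of whole adult males and females mixed 9 to 1. With repeated scans merged, the control group had 4 arrays, 500 µg/L had 5, 1500 µg/L had 3 and 4500 µg/L had 4. Every value below is a log2 ratio of larval over adult reference signal or a difference between mean ratios (a log2 fold change, with its standard error in parentheses), and in whole larvae a change in the number of cells of a type and a change of RNA per cell cannot be told apart. The p-values measure the spread between these pools.

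Many of the 82 genes had few usable ratios. The authors marked poor spots and kept a ratio only for the others, and for the members a ratio was kept on a median of 8.5 of the 16 arrays, against 8 for all 22980 probes. Only 15 members had at least 3 kept ratios in every group. The genes are therefore given with every spot used, and the 15 with kept ratios alone as well. The SD between arrays of a group had a median of 0.42 on the log2 scale over the members and 0.41 over all probes. The Cy3 background was 92 to 129 scanner units on replicates 1 and 3 at 1500 µg/L and replicates 2 and 3 at 4500 µg/L, and 162 to 247 units on the other 12 arrays. Low background thus occurred only at 1500 and 4500 µg/L, on some arrays of each, and was partly confounded with exposure. Of 22 named genes with an unadjusted p under 0.05 at 4500 µg/L, all kept their sign and 13 kept such a p when these 4 arrays were left out, and the values without them are given beside the calls and the genes that moved most. Among the genes that did not keep it, gria4a, cacng2a, kcnk5a, ppp3ca and stx18 are given below with all arrays only. Without these 4 arrays they stood at -0.40, 1.07, 0.85, 1.12 and 0.87 at 4500 µg/L. The part of this background in the results was not tested.

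The whole larvae held neuronal RNA that could be followed beside the members. Of 26 neuronal marker genes listed, 19 had a probe. Their mean log2 ratio lay between -0.12 and 0.09 on the control arrays and between -0.14 and 0.12 at 4500 µg/L. At that concentration 2 of them were higher and 3 lower at an unadjusted p under 0.05 (14.6% and 7.24% of all probes), and none passed an adjusted p of 0.05. The pan-neuronal markers elavl3 and elavl4 had a kept ratio on 4 arrays each, so that their levels are poorly measured. The mean over 8 glial markers lay between -0.02 and 0.12 in the control group and between -0.37 and -0.20 at 4500 µg/L, with no overlap. Of these 8, 6 were below 0 at 4500 µg/L, 3 of them at an unadjusted p under 0.05 (7.24% of all probes). The mean over 6 retinal markers lay between -0.35 and -0.00050 in the control group and between 0.10 and 0.49 at 4500 µg/L, again with no overlap. These 6 did not move together. opn1sw1, opn1mw1 and gnat1 changed by 0.87, 0.90 and 0.69 at 4500 µg/L, from control-group ratios of -0.95, -0.81 and -0.40. The others, gnat2, rcvrna and crx, changed by -0.06, 0.10 and 0.13. Of all single probes, 5.59% lay above every control array at 4500 µg/L and 2.86% below. The means over 7 heart markers (-0.16 to 0.19 in the control group, -0.12 to 0.15 at 4500 µg/L) and over 13 skeletal muscle markers (-0.54 to -0.01 and -0.64 to -0.23) overlapped. The part of any of these in the results below was not tested.

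In unexposed larvae the members were on balance slightly below the adult reference in signal. Every larval sample carried Cy5 and the reference Cy3, so dye and larval or adult origin cannot be told apart in these ratios. The median control-group log2 ratio was -0.11 over the 82 genes and 0.02 over all probes, and 31 members were above 0. The highest were vamp2, a synaptic vesicle SNARE, at 1.31 ± 0.61 (SD, n = 4), cacna1c, the pore of an L-type calcium channel, at 0.86 ± 0.35, and chrna2a, a neuronal nicotinic subunit, at 0.66 ± 0.41. The other probes of vamp2 stood at -0.19 and 0.05, so that its level depended on the probe. The lowest were gria3b, an AMPA receptor subunit, at -2.56 ± 0.68, camk2a, the alpha isoform of CaMKII, at -2.20 ± 0.53, and kcnk5a, a leak potassium channel, at -2.18 ± 0.56.

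Exposure to 4500 µg/L BPA gave the only members that passed an adjusted p of 0.05 against the control group. The 3 genes that rose were ppp3r1b, the regulatory subunit of calcineurin, gria1b, an AMPA receptor subunit, and chrna7a, a nicotinic subunit of the calcium-permeable brain type. The single gene that fell was vamp5, a SNARE known in mammals mainly from muscle. These are 4 of 82 genes, or 4.88%, where 3.08% of all probes passed (2.78% higher and 0.296% lower). Of these 4 genes only vamp5 was among the 15 that could be tested with kept ratios alone. With kept ratios alone no member passed and 0.0258% of the 3878 tested probes did. Before adjustment, 5 of the 15 members and 20.5% of those probes had a p under 0.05. At 500 and 1500 µg/L 0 and 1 of the 15 had such a p (1.47% and 7.19% of the probes), and none passed an adjusted p (0% of the probes). The tests named in the study's methods gave no member at an adjusted p of 0.05 in either set. At 4500 µg/L those tests also gave 0 of all probes higher and 0 lower in each set.

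At 500 and 1500 µg/L no member passed an adjusted p of 0.05 in limma or in the methods' tests, and 0 and 0.0131% of all probes did in limma. At an unadjusted p under 0.05, 2 members differed at 500 µg/L (2.44%, with 3.72% of all probes), 6 at 1500 µg/L (7.32% against 11.2%) and 25 at 4500 µg/L (30.5% against 21.8%). By direction, 2 were higher (2.17% of all probes) and none lower (1.55%) at the lowest concentration, and 4 were higher (8.13%) and 2 lower (3.06%) at the middle one. At the highest, 20 members were higher, or 24.4% against 14.6% of all probes, and 5 were lower, or 6.10% against 7.24%. The methods' tests gave 1, 6 and 22 such members, stated here without the share of all probes by those tests. The median log2 fold change of the 82 genes was 0.06, 0.09 and 0.03 at the 3 concentrations, and that of all probes 0.02, 0.04 and 0.02. The median of the list was thus near 0 at each concentration with every spot used. With kept ratios alone the median of the 15 genes was -0.05, -0.23 and -0.38, and that of the 3878 probes 0.02, -0.09 and -0.17. On kept ratios at 4500 µg/L, 3 of the 15 genes (20%) and 35.3% of the probes were above 0. At an unadjusted p under 0.05 there, 2 of the 15 were higher and 3 lower (6.4% and 14.1% of the probes).

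**Figure D1:**
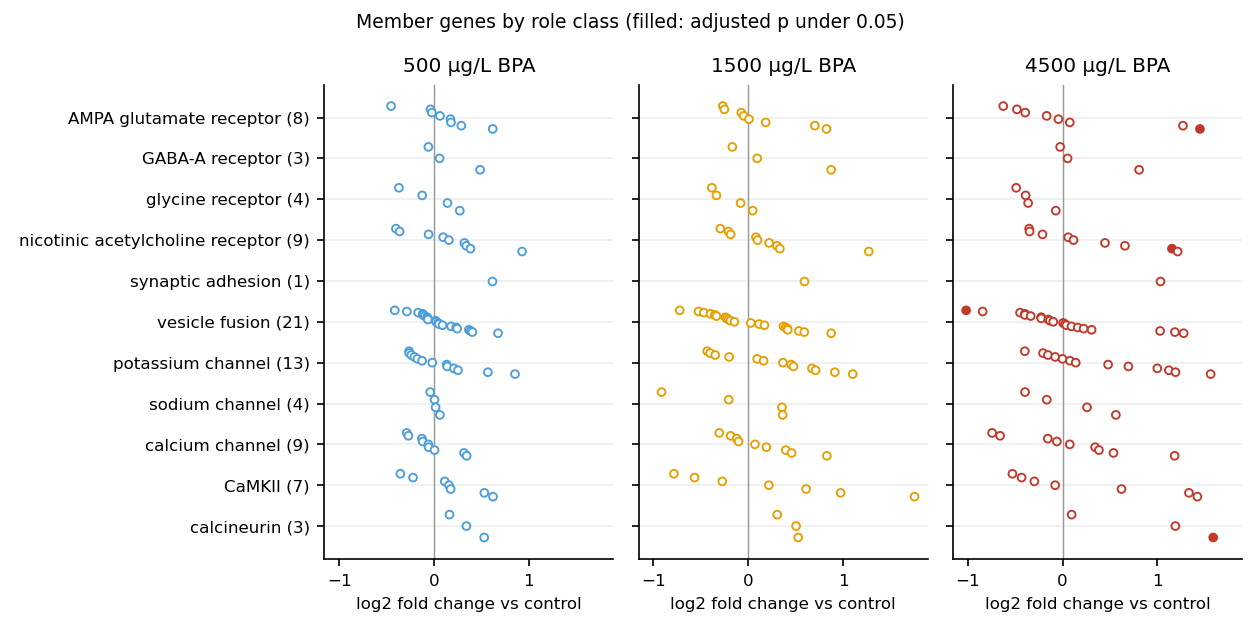
Log2 fold change of each of the 82 genes against the control group (horizontal axis, log2) by role class (vertical axis, number of genes in parentheses) at 500, 1500 and 4500 µg/L BPA, with filled points for an adjusted p under 0.05. At 4500 µg/L the filled points are ppp3r1b at 1.59, gria1b at 1.45, chrna7a at 1.15 and vamp5 at -1.02.

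The 2-step rule of the study was an FDR under 0.2 across the groups followed by an unadjusted p under 0.05 against control. With limma and every spot used it was met by 6 members. They were chrna7a at all 3 concentrations, camk2a and gabra4, a GABA-A receptor subunit, at 1500 and 4500 µg/L, and gria1b, ppp3r1b and vamp5 at 4500 µg/L. These are 1, 3 and 6 of the 82 genes (1.22%, 3.66% and 7.32%), where 1.07%, 4.14% and 5.89% of all probes met the rule. No member met it with kept ratios alone, and 0% of the tested probes did at any concentration. Of these 6 genes only vamp5 had enough kept ratios to be tested in that way.

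Among the AMPA receptor genes, gria1b had the largest change. Its log2 ratio was -1.30, -1.32, -0.78 and -0.24 on control replicates 1 to 4 and 0.96, 0.08, 0.17 and 0.93 at 4500 µg/L. At 500 µg/L it was -0.06, -1.06, -0.13, -0.19 and -0.02, and at 1500 µg/L 0.50, -0.53 and -0.60. All 4 arrays at 4500 µg/L were above every control array, while the arrays at 500 and 1500 µg/L overlapped the control range. The log2 fold change was 0.62 (0.31), 0.70 (0.35) and 1.45 (0.33) at the 3 concentrations, the last a 2.73-fold rise with an adjusted p of 0.0263 from limma. The exact permutation test, two-sided, gave 0.0286 at 4500 µg/L, the smallest value that 4 arrays against 4 allow, and 0.111 and 0.229 at the lower concentrations.

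The gria1b probe was dim, at the 6.22th percentile of mean intensity, and the authors kept its ratio on 1 of 16 arrays. The size of its change at 4500 µg/L varied with the background step. It was 0.57 without background correction (adjusted p = 0.0722 from limma) and 2.04 with a correction offset of 10 (adjusted p = 0.0273). With the low Cy3 background as a block it was 1.60 (adjusted p = 0.128). Without the 4 arrays of low Cy3 background the change was 1.86 with an adjusted p of 0.112. The call was also lost without control replicate 1, 2 or 3 or without replicate 1 or 2 at 4500 µg/L, where the adjusted p ranged from 0.0676 to 0.0968 and the change from 1.31 to 1.60.

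The other AMPA subunits did not move together. gria3b was at 1.27 (0.46) at 4500 µg/L with an unadjusted p of 0.0129 (adjusted 0.121), and gria4a at -0.48 (0.21) with an unadjusted p of 0.0308 (adjusted 0.180). gria2b, the brightest of the class with a kept ratio on 15 arrays, stood at -0.39 (0.22), and gria4b at -0.63 (0.43). The remaining 3 lay between -0.17 and 0.08. Of the 8 genes, 2 were higher and 1 lower at an unadjusted p under 0.05, where 14.6% of all probes were higher and 7.24% lower.

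Among the inhibitory receptors, gabra4 was the only one to meet the 2-step rule. Its log2 ratio was -0.97, -0.65, -1.36 and -0.20 on the control arrays, 0.34, -0.34 and 0.25 at 1500 µg/L and -0.11, 0.26, -0.18 and 0.09 at 4500 µg/L. The control values lay below all 4 values at 4500 µg/L, control replicate 4 only just, and 1 of the 3 arrays at 1500 µg/L was below that control array. The log2 fold change was -0.06 (0.26), 0.87 (0.29) and 0.81 (0.27), with adjusted p-values of 0.292 at 1500 and 0.0950 at 4500 µg/L. The 2-step calls were lost without replicate 1 or 2 at 4500 µg/L, where the FDR across the groups was 0.212 to 0.251. They were lost too without the arrays of low Cy3 background (0.78 at 4500 µg/L, adjusted p = 0.349) or with these as a block, without background correction, with a replicate block and with the methods' tests, and held in 6 of 11 such settings. The probe had kept ratios on 3 arrays. The other GABA-A subunits were near 0 at 4500 µg/L, gabra6a at -0.03 (0.31) and gabrb2a at 0.05 (0.26).

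The 4 glycine receptor subunits were all below 0 at 4500 µg/L, none of them at an unadjusted p under 0.05. glra3 stood at -0.36 (0.25), glra4a at -0.49 (0.50), glra4b at -0.39 (0.27) and glra1 at -0.07 (0.34). Their ratios were kept on 3 to 5 arrays each. Without the arrays of low Cy3 background glra4a was at -1.16 (0.49, unadjusted p = 0.0335), with the outlying replicate 4 as 1 of the 2 arrays left.

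The nicotinic receptor chrna7a was higher at every concentration. Its log2 ratio was -1.58, -1.81, -1.71 and -1.32 on the control arrays, and -0.28, -1.64, -0.70, -0.21 and -0.54 at 500 µg/L. It was -0.43, -0.41 and -0.17 at 1500 µg/L and -1.04, -0.09, -0.26 and -0.43 at 4500 µg/L. The arrays at 1500 and 4500 µg/L were all above the control arrays, and at 500 µg/L only replicate 2 fell among them. The log2 fold changes were 0.93 (0.27), 1.27 (0.31) and 1.15 (0.29), and at 4500 µg/L, a 2.23-fold rise, the adjusted p was 0.0365 from limma. The values at the 3 concentrations were close together, and no difference between concentrations passed.

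The chrna7a probe was among the dimmest of the array, at the 2.96th percentile, with kept ratios on 3 arrays. Without background correction its change at 4500 µg/L was 0.39 (adjusted p = 0.132 from limma). The call by adjusted p was lost too with median centring, a replicate block, a block for low Cy3 background, a correction for spot order and the methods' tests. It held in 4 of 11 such settings, and the 2-step call at 500 µg/L held in 6 of 11. Without the arrays of low Cy3 background the change at 4500 µg/L was 0.87 with an adjusted p of 0.337. Leaving out control replicate 1, 2 or 3 or replicate 1, 2 or 3 at 4500 µg/L ended the call too, with adjusted p-values of 0.0615 to 0.122, and the 2-step calls were lost without control replicate 2 or 3 or replicate 2 at 4500 µg/L.

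Of the other nicotinic subunits, chrng, which belongs to the fetal form of the muscle receptor, was at 1.21 (0.37) at 4500 µg/L with an unadjusted p of 0.00384 (adjusted 0.0725). The other muscle subunits chrna1 (-0.35, 0.22), chrnd (-0.21, 0.34) and chrne (0.06, 0.29) did not share this value. chrna2a, the brightest of the class, stood at 0.45 (0.39). Its values at 4500 µg/L ran from -0.15 to 2.34, wider than the control range of 0.17 to 1.16. It averaged 1.68 on the arrays of low Cy3 background there and 0.53 on the other 2, and without the low-background arrays the change was -0.13 (0.35).

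**Figure D2:**
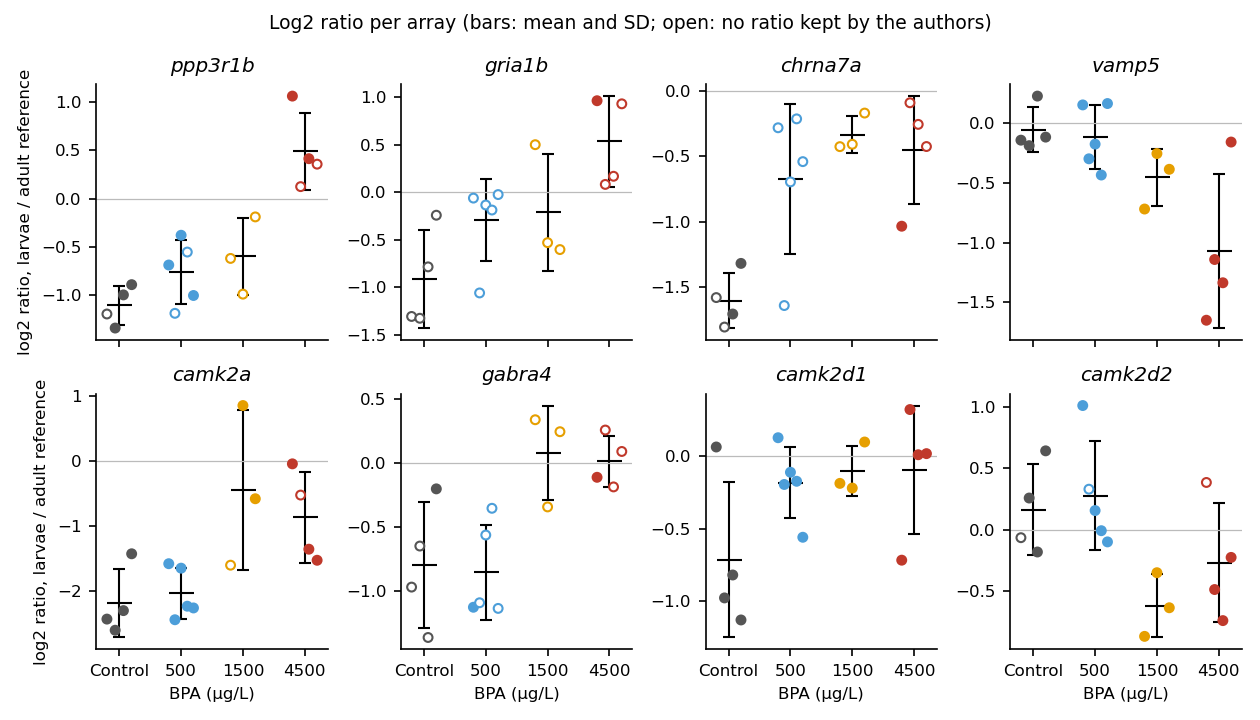
Log2 ratio of larval over adult reference signal (vertical axis) on each array by group (horizontal axis, µg/L BPA) for 8 genes, with mean and SD as bars and open points where the authors kept no ratio. At 4500 µg/L the ppp3r1b and gria1b points lie above all control points, while most gria1b points are open, and vamp5 replicate 4 lies at -0.16 within the control range.

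The adhesion gene nrxn3a, a presynaptic neurexin, was at 0.61 (0.29), 0.58 (0.33) and 1.03 (0.30) at the 3 concentrations, with an unadjusted p of 0.00313 (adjusted 0.0670) at the highest. Its 4 arrays at 4500 µg/L, from -0.65 to 0.54, were above the control arrays, from -1.63 to -0.72.

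Among the 21 vesicle fusion genes, vamp5 was the brightest, at the 99.0th percentile and with kept ratios on all 16 arrays. Its log2 ratio was -0.14, -0.19, 0.23 and -0.12 on the control arrays and -1.65, -1.14, -1.34 and -0.16 at 4500 µg/L. At 500 µg/L it was 0.15, -0.30, -0.17, -0.43 and 0.17, and at 1500 µg/L -0.72, -0.25 and -0.38. At 4500 µg/L 3 arrays were below every control array and replicate 4 was within their range, and at 1500 µg/L all 3 were below. The log2 fold change was -0.06 (0.26), -0.40 (0.30) and -1.02 (0.27), and at 4500 µg/L the adjusted p was 0.0496 from limma.

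That p was close to the threshold. With kept ratios alone the same fold change had an unadjusted p of 0.00122 and an adjusted p of 0.134. Leaving out any single array other than replicate 2 at 1500 µg/L or replicate 4 at 4500 µg/L gave an adjusted p of 0.0537 to 0.164, and leaving out replicate 4 gave a change of -1.32 with an adjusted p of 0.00414. Without the arrays of low Cy3 background it was -0.85 (adjusted p = 0.338).

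Among the other vesicle fusion genes, stx17, stx18 and vamp1b, all well below the adult reference in the control group, stood at 1.28 (0.40), 1.19 (0.37) and 1.03 (0.48) at 4500 µg/L, with unadjusted p-values of 0.00480, 0.00450 and 0.0462. vamp8, an endosomal SNARE, was at -0.84 (0.29, unadjusted p = 0.00883), but its second, dimmer probe was at 0.25 (0.39), and without the arrays of low Cy3 background the first was at -0.57 (0.37). vamp2 stood at -0.23 (0.35), and its other probes at -0.57 (0.42) and -0.32 (0.29). The presynaptic snap25a, kept on all 16 arrays, was at -0.40 (0.30), and snap25b at 0.22 (0.23). The snap25a ratio averaged -1.32 on the arrays of low Cy3 background at 4500 µg/L and -0.29 on the other 2, against -0.41 in the control group. The 7 synaptotagmins lay between -0.45 and 0.31 at 4500 µg/L, with none at an unadjusted p under 0.05. A second probe of syt1a was at -0.64 (0.25) with an unadjusted p of 0.0203 (adjusted 0.148), while its brightest probe stood at -0.13 (0.36).

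Of the 13 potassium channel genes, 5 were higher and none lower at 4500 µg/L at an unadjusted p under 0.05, where 14.6% of all probes were higher and 7.24% lower. All 5 had a control-group ratio below 0. Of these, 3 encode calcium-binding partners of the A-type channels, namely kcnip1b at 1.19 (0.43), kcnip3b at 1.00 (0.31) and kcnip3a at 0.69 (0.28). The A-type channel gene kcnd3 itself was at -0.08 (0.21). The other 2 were kcnj1a.2, an inward rectifier, at 1.56 (0.66), and kcnk5a at 1.12 (0.42).

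kcnip3a was kept on all 16 arrays. Its log2 ratio was -0.35, -0.23, -0.39 and -0.49 on the control arrays, 0.41, -0.18 and 0.02 at 1500 µg/L and -0.66, 0.86, 0.97 and 0.15 at 4500 µg/L. The arrays at 1500 µg/L were all above the control arrays, whereas at 4500 µg/L replicate 1 was below them and the other 3 above. With kept ratios the change at 4500 µg/L had an unadjusted p of 0.0226 (adjusted 0.189). The kcnip3a ratio averaged 0.91 on the 2 arrays of low Cy3 background at 4500 µg/L and -0.26 on the other 2, against -0.37 in the control group, and without the low-background arrays the change was 0.11 (0.26). For kcnip3b the means were 1.22 and 0.41, and the change without those arrays was 0.59 (0.28, unadjusted p = 0.0564).

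The kcnj1a.2 probe varied more. Its log2 ratio was -1.35, 2.29 and -2.27 on the 3 arrays at 1500 µg/L. The control arrays ran from -2.01 to -0.91 and the arrays at 4500 µg/L from -0.41 to 0.67, with no overlap.

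None of the 4 sodium channel genes had an unadjusted p under 0.05 at the highest concentration. scn8aa, the brightest, a channel of axons and motor neurons, stood at -0.17 (0.26), scn5lab, of the heart type, at 0.26 (0.24), scn1laa at 0.56 (0.34; 0.95 without the arrays of low Cy3 background, unadjusted p = 0.0127) and the auxiliary subunit scn4bb at -0.40 (0.45).

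Among the 9 calcium channel genes, 2 were lower and 1 higher at 4500 µg/L at an unadjusted p under 0.05 (7.24% and 14.6% of all probes). The lower ones, cacna1db and cacna1c, encode pores of L-type channels, whereas the other L-type pores cacna1da and cacna1sb stood at 0.08 (0.28) and 0.38 (0.27). cacna1db had a log2 ratio of 0.61, 0.23, 0.56 and 1.00 on the control arrays and -0.33, -0.11, -0.10 and -0.02 at 4500 µg/L, and every one of the latter was below the control range. Its log2 fold change was -0.27 (0.21), -0.31 (0.24) and -0.74 (0.22), with an unadjusted p of 0.00356 (adjusted 0.0702) at 4500 µg/L. With kept ratios, which it had on all 16 arrays, the unadjusted p was 0.00438 (adjusted 0.139). cacna1c was at -0.66 (0.25, unadjusted p = 0.0168), also below all control arrays, with kept ratios on 9 arrays. cacng2a, an auxiliary protein that brings AMPA receptors to the synapse, was at 1.18 (0.41, unadjusted p = 0.00975).

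The CaMKII genes went in different directions. For camk2a the log2 ratio was -2.44, -2.61, -2.31 and -1.43 on the control arrays, -1.61, 0.86 and -0.58 at 1500 µg/L and -0.04, -0.52, -1.36 and -1.53 at 4500 µg/L. Control replicate 4 overlapped the groups at 1500 and 4500 µg/L, and the other 3 control arrays were below all 7 values of these groups. At 500 µg/L the ratio ran from -2.45 to -1.58, within the control range. The log2 fold change was 0.16 (0.41), 1.75 (0.47) and 1.33 (0.43), with adjusted p-values of 0.206 at 1500 and 0.0873 at 4500 µg/L. The camk2a calls by the 2-step rule were lost without replicate 1 or 2 at 4500 µg/L, where that FDR was 0.207 to 0.226. They were lost too with a replicate block, a block for low Cy3 background and the methods' tests, and held in 9 of 12 such settings. Without the arrays of low Cy3 background the change at 4500 µg/L was 1.41 (0.43). At 1500 µg/L camk2a averaged -1.09 on the 2 arrays of low Cy3 background and was at 0.86 on the other.

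By their brightest probes, the delta isoforms camk2d1 and camk2d2, paralogs in zebrafish, were both above 0 at 500 µg/L and had opposite signs at 1500 and 4500 µg/L. camk2d1 was at 0.06, -0.98, -0.82 and -1.13 on the control arrays and at -0.72, 0.32, 0.01 and 0.02 at 4500 µg/L, with control replicate 1 inside the exposed range. Its log2 fold change was 0.53 (0.26), 0.61 (0.30) and 0.62 (0.27), and the unadjusted p at 4500 µg/L was 0.0346 with every spot and 0.0335 with kept ratios. The exact permutation test gave 0.0794, 0.171 and 0.114 at the 3 concentrations. Without the arrays of low Cy3 background the change at 4500 µg/L was 0.36 (0.35). A second, dimmer probe of camk2d1, with kept ratios on 5 arrays, stood at 1.14 (0.57), 1.20 (0.65) and 1.66 (0.60), the same direction. Its control-group ratio was -1.69. Of all probes with such a ratio below -1, 84.8% were higher at 4500 µg/L at an unadjusted p under 0.05.

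camk2d2 was at -0.07, 0.26, -0.18 and 0.64 on the control arrays and at -0.87, -0.35 and -0.64 at 1500 µg/L, and the latter were all below the former. Its log2 fold change was 0.11 (0.27), -0.78 (0.31) and -0.43 (0.29) with every spot and 0.03 (0.30), -0.86 (0.32) and -0.73 (0.32) with kept ratios, where the unadjusted p was 0.0150 at 1500 and 0.0361 at 4500 µg/L. The exact permutation test at 1500 µg/L gave 0.0571, the smallest value that 3 arrays against 4 allow, so that this group cannot reach 0.05. On the 2 arrays of low Cy3 background at 4500 µg/L camk2d2 averaged -0.62 and on the other 2 it averaged 0.08. Of its 2 other probes, one was near 0, with 0.06 (0.27) at 1500 and -0.05 (0.25) at 4500 µg/L. The other had the sign of the first probe at these concentrations, with -0.43 (0.48) and -0.32 (0.44). At 500 µg/L both were below 0, unlike the first probe, at -0.18 (0.24) and -1.06 (0.42). The latter had an unadjusted p of 0.0208 from limma (adjusted 0.9998). camk2g1, the gamma isoform, was at -0.53 (0.30) at 4500 µg/L.

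camk2n2a, named for an inhibitor of CaMKII, was at 1.42 (0.54, unadjusted p = 0.0169) at 4500 µg/L. Its second probe, of nearly the same brightness, was at -0.19 (0.26). The control-group ratios of the 2 probes also differed, at -1.67 and 0.37.

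Calcineurin had the member with the smallest p. For ppp3r1b the log2 ratio was -1.19, -1.34, -0.99 and -0.89 on the control arrays and 1.06, 0.12, 0.41 and 0.35 at 4500 µg/L. It was -0.69, -1.19, -0.38, -0.55 and -1.0 at 500 µg/L and -0.62, -0.99 and -0.19 at 1500 µg/L. Every array at 4500 µg/L was above every other array, and the lower concentrations overlapped the control range. The log2 fold change was 0.34 (0.24), 0.50 (0.27) and 1.59 (0.25), the last a 3.01-fold rise with an adjusted p of 0.00877 from limma and an exact permutation p of 0.0286.

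The ppp3r1b call held when any one of the 16 arrays was left out, with changes of 1.40 to 1.71 and adjusted p-values of 0.00341 to 0.0365. With the low Cy3 background as a block it was 1.60 (adjusted p = 0.0491), and without those 4 arrays 1.81 with an adjusted p of 0.0990. The ppp3r1b change was 0.68 without background correction (adjusted p = 0.0467 from limma). With a correction offset of 10 it was 1.84 (adjusted p = 0.0123). The ratio was kept on 8 arrays, and none at 1500 µg/L. The catalytic subunits differed from each other, ppp3ca at 1.19 (0.41, unadjusted p = 0.00905) and ppp3cb at 0.10 (0.25).

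**Figure D3:**
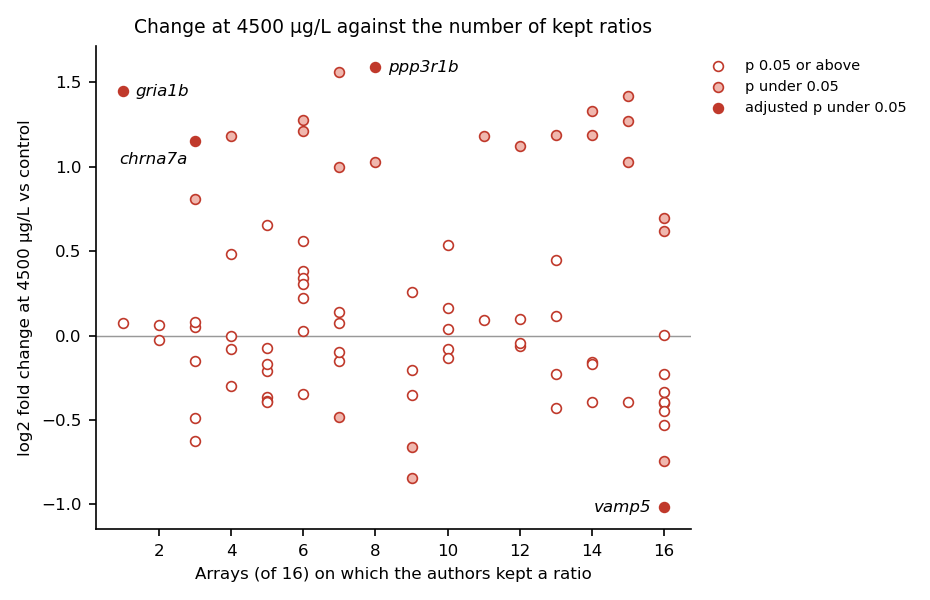
Log2 fold change at 4500 µg/L against the control group (vertical axis) of the 82 genes by the number of the 16 arrays on which the authors kept a ratio (horizontal axis), with red points for an adjusted p under 0.05 and pale points for an unadjusted p under 0.05. The 3 genes that rose had 1, 3 and 8 kept ratios, and vamp5, which fell, had 16.

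By separation of the groups, 10 members had all 4 arrays at 4500 µg/L above all control arrays (12.2% of the members, 5.59% of all probes) and 2 had them all below (2.44% against 2.86%). The 10 were gria1b, gabra4, chrna7a, chrng, chrnb3b, nrxn3a, kcnip1b, kcnj1a.2, cacnb1 and ppp3r1b, and the 2 were cacna1c and cacna1db. At 1500 µg/L 3 were above (3.66% against 6.35%) and 3 below (3.66% against 3.64%), and at 500 µg/L none were above (0.866% of all probes) and none below (0.796%).

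The members that were higher at 4500 µg/L had low larval signal relative to the adult reference in the control group. All 20 with an unadjusted p under 0.05 had a control-group log2 ratio below 0, as had 1 of the 5 that were lower. The array as a whole was alike. Of all 3346 probes higher at that p, 172 had a control-group ratio of 0 or above, and of the 1663 lower, 1297 had. Of the 82 genes, 13 had a control-group ratio below -1, and all 13 were higher at 4500 µg/L at an unadjusted p under 0.05, by 1.03 to 1.59 with a median of 1.19. They were gria3b, chrna7a, nrxn3a, stx17, stx18, vamp1b, kcnip1b, kcnj1a.2, kcnk5a, camk2a, camk2n2a, ppp3ca and ppp3r1b. Among all 1897 probes with such a ratio, 84.8% were higher in this way, with a median of 1.18, so that the 13 genes shared a pattern of the whole array. Of the 38 members with a control-group ratio from -1 to 0, 7 were higher (18.4%) and 1 was lower (2.63%), against 17.1% and 4.00% of all such probes. Of the 31 members with a control-group ratio of 0 or above none was higher and 4 were lower (12.9%), and of all such probes 1.44% were higher and 10.9% lower.

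A ratio chosen to be low in the control group and a fold change against that group use the same arrays. The difference between 4500 and 500 µg/L does not use them. By that difference all 13 genes were above 0, with a median of 0.80 and 6 at an unadjusted p under 0.05, and of the 1897 probes 98.4% were above 0, with a median of 0.79 and 54.2% at that p. Without the arrays of low Cy3 background the median of that difference was 0.85 for the 13 genes, 12 of them above 0. For the 1897 probes it was 0.68, with 1817 above 0. Fewer genes and probes then had an unadjusted p under 0.05 than with all arrays. With all arrays and low Cy3 background as a block, 3 of the 13 genes and 28.8% of the 1897 probes were higher at that p by the difference from 500 µg/L. Against the control group 8 genes and 59.2% of the probes were higher at that p with this block. Against the control group the medians without those arrays were 1.24 for the genes and 1.06 for the probes.

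The arrays of a group differed in the same way for both. The median log2 ratio of the 13 genes was -1.46, -1.81, -1.71 and -1.32 on the control arrays and -0.53, -1.84, -0.38, -1.53 and -1.22 at 500 µg/L. It was -0.96, -1.17 and -0.26 on the arrays at 1500 µg/L, and 0.37, -0.12, -0.46 and -1.29 on those at 4500 µg/L. Replicate 4 at 4500 µg/L was thus close to control replicate 4. The median of the 1897 probes was 0.10, -0.15, -0.49 and -1.17 on the arrays at 4500 µg/L and between -1.80 and -1.23 on the control arrays.

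**Figure D4:**
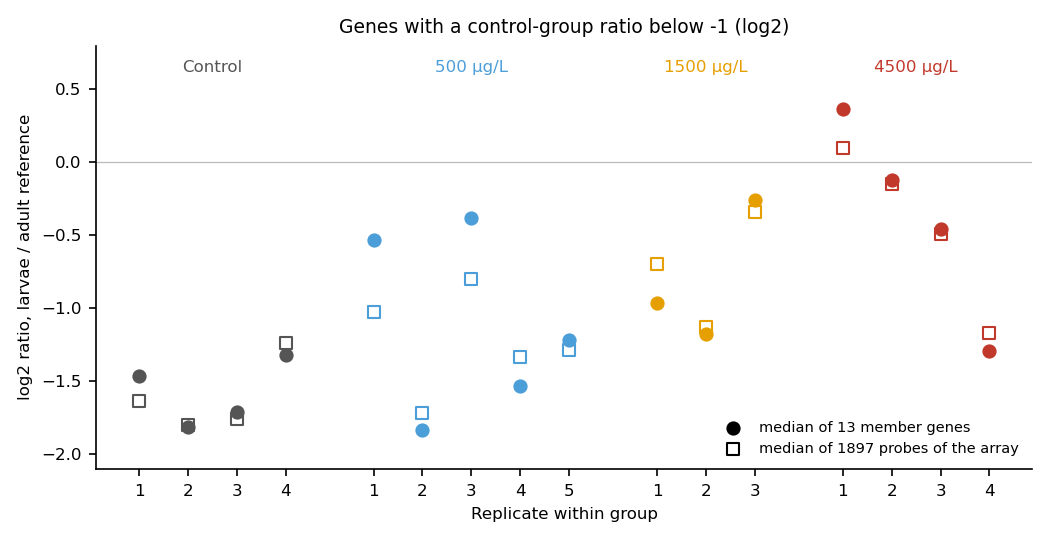
Median log2 ratio of larval over adult reference signal (vertical axis) on each array (horizontal axis, replicates within groups) over the 13 member genes with a control-group ratio below -1 (circles) and over the 1897 probes of the array with such a ratio (squares). The circles and squares follow each other from array to array, from -1.84 on replicate 2 at 500 µg/L to 0.37 on replicate 1 at 4500 µg/L for the genes.

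Between BPA concentrations no member passed an adjusted p of 0.05 in limma or in the methods' tests, and 0, 0.0827% and 0% of all probes did for 1500 against 500, 4500 against 500 and 4500 against 1500 µg/L. The unadjusted p was under 0.05 for 7, 18 and 5 members (8.54%, 22% and 6.10%), and for 7.65%, 17.8% and 4.23% of all probes.

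Other genes of the synapse were taken from lists. Of 10 measured genes of vesicle cycling and release, among them the vesicle protein gene sypb at -0.12 (0.25) and the fusion factor nsfb at -0.42 (0.28) at 4500 µg/L, none had an unadjusted p under 0.05 there, and their median was -0.18. Of 26 measured genes of the postsynaptic scaffold and of plasticity signalling, 1 was higher and 4 lower at that p (14.6% and 7.24% of all probes), none at an adjusted p of 0.05, with a median of -0.17. The one higher was rcan2, a calcineurin regulator, at 0.59 (0.26), with kept ratios on 4 arrays. The lower ones were bdnf, a neurotrophin, at -0.70 (0.22), mapk3 at -0.69 (0.29), the calmodulin gene calm2b at -0.68 (0.31) and the transcription factor gene creb1b at -0.58 (0.26). The creb1b ratio was kept on 0 arrays. The other measured calmodulin genes went both ways, from -0.44 for calm3a to 0.64 for calm1b.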

How the data were processed

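Larval Cy5 and adult reference Cy3 signals were measured on 18 scans of spotted oligonucleotide arrays. The deposited intensity values are scanner foreground and local background per spot, which the authors did not normalize. The deposited log2 ratios were Lowess-normalized by the authors, who left flagged spots blank. In 1 control scan the lines without a ratio were shifted by a column and were realigned. Background was corrected with normexp (offset 50), ratios were normalized by loess within each array, and repeated scans of an array (99.8% or more identical Cy5 values) were averaged, leaving 16 arrays. limma 3.58.1 in R 4.3.3 was fitted across all 4 groups, on every spot of 22980 probes and on the kept ratios of 3878 probes with at least 3 values per group. P-values were Benjamini-Hochberg adjusted over all probes of a fit and called under 0.05. Single genes were also compared by exact two-sided permutation tests in scipy 1.17.1. The code was tested on simulated data. The number of arrays limits the precision.

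The members and lists were chosen with earlier results of these data known. Named genes are those with a call, those with an unadjusted p under 0.05 on kept ratios, those the selection rule names, and in each class the brightest, the extremes of control-group ratio and those with the smallest p across groups, with the 5 largest and 5 smallest changes at 4500 µg/L. Others named in the text, such as kcnip1b, stx17, vamp1b, cacnb1, chrnb3b, snap25a and the syt1a probe, were chosen after their values were seen. Alternatives covered background correction, centring, scans, array weights, blocks, tests, spot order, probes, filters and each array left out.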

Additional observations from a re-analysis of the deposited data

Results flagged for a closer look

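Of 117 sets of values (39 named genes in the 3 groups of 4 or 5 arrays), 4 held an array far from the others of its group by Dixon's test, and chance gives about 1 in 20. The glycine receptor subunit glra4a was at -2.04 on replicate 4 at 4500 µg/L and at 0.29 to 0.58 on the others. The AMPA receptor subunit gria1b was at -1.06 on replicate 2 at 500 µg/L and at -0.19 to -0.02 on the others. The potassium channel gene kcnd3 was at 0.86 on control replicate 4 and at 0.44 to 0.49 on the others, and the calcineurin gene ppp3cb at -0.42 on replicate 3 at 500 µg/L and at 0.03 to 0.16 on the others.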

How the results depend on the processing

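With every spot used, the 4 members with an adjusted p under 0.05 at 4500 µg/L became 9 with every scan as a separate array or with array quality weights, 2 with a replicate block or a correction for spot order, 1 without background correction, with low Cy3 background as a block or without the dimmest 25% of probes, and 0 with the methods' tests, kept ratios only or without the low Cy3 background arrays. The count ran from 1 to 16 with single arrays left out. Of these 4 members, and of the 6 below by the 2-step rule, only vamp5 had enough kept ratios to be tested. The probes of gria1b, chrna7a and gabra4 were among the dimmest 25% that were left out. The calls among all 22980 probes at 4500 µg/L moved too. In the main fit 639 were higher and 68 lower at that adjusted p. With separate scans these were 1238 and 406, with weights 1208 and 207, with the Cy3 block 17 and 1, and with the methods' tests 0 and 0. Without replicate 4 at 4500 µg/L they were 2125 and 763, and without replicate 2 at 4500 µg/L 25 and 0. The 6 members meeting the 2-step rule there became 11 with median centring, 18 with separate scans or weights, 3 with the replicate block, 1 with the Cy3 block or the methods' tests and 0 with kept ratios (1 to 21 with single arrays left out). The 3 at 1500 µg/L became 8 with median centring, 13 with separate scans, 17 with weights, 1 without the dimmest probes and 0 with the Cy3 block, the methods' tests or kept ratios (0 to 9). The 1 at 500 µg/L became 2 with separate scans, 4 with weights, and 0 without background correction, with median centring, the Cy3 block, the methods' tests, kept ratios or without the dimmest probes (0 to 3).

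The count of 0 by adjusted p at 1500 µg/L became 1 with separate scans and 3 with weights or without the low Cy3 background arrays, which leave 1 array at 1500 µg/L, assumed to vary like the other groups. Without those arrays it became 3 for 1500 against 500 µg/L and 1 for 4500 against 1500 µg/L. For 4500 against 500 µg/L it became 1 with median centring, separate scans or weights (0 to 7 with single arrays left out). On kept ratios the counts of 0 by adjusted p became 1 at 1500 µg/L without the low Cy3 background arrays and 2 at 4500 µg/L with separate scans or weights (0 to 2). By the 2-step rule they became 1 at 500 µg/L with separate scans, and at 1500 µg/L 3 with separate scans or weights and 1 with median centring, at least 2 values per group or without the low Cy3 background arrays (0 to 1). At 4500 µg/L they became 5 with separate scans or weights, 2 with median centring and 1 with at least 2 values per group or without the low Cy3 background arrays (0 to 4). Leaving out the low Cy3 background arrays was chosen after seeing the data. Of the 3878 probes on kept ratios, 143 were higher and 114 lower by adjusted p at 4500 µg/L with separate scans. With weights these were 123 and 223. Except where calls among all probes are given, the member counts under this heading stand without a share of all probes. This holds for the adjusted counts, the 2-step counts and the ranges with single arrays left out, so they show nothing particular to the members. The causes were not tested.

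No called value changed direction, and 151 of 3945 values of named genes, none of them called, changed sign. The replicate numbers did not pair the arrays: the deviations of 21 same-numbered pairs had a median correlation of 0.000352 (-0.282 to 0.295), and 4 of 16 arrays were closest to their own number. The median of all probes at 4500 µg/L was 0.02 with every spot and -0.17 with kept ratios. Few kept ratios limit many members: a ratio was kept on 5 or fewer arrays for 23 of the 82.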
